A study of Homo sapiens with 12 samples.

Results

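Heat shock proteins and cytosolic chaperones are the proteins that fold, hold and refold other proteins. The set described here holds 42 genes, found by symbol among the 26485 genes of the table, and it covers 2 transcriptional regulators, 10 genes of the HSP70 and HSP110 families, 4 small heat shock proteins, 2 HSP90 genes, 7 J-proteins, 3 BAG factors, 5 HSP90 cochaperones, both subunits of the mitochondrial chaperonin and 7 genes of the TRiC chaperonin. Their mRNA was measured in BT474, an established line of human breast cancer cells that are HER2-positive and have luminal features, kept in 1 µM lapatinib, a kinase inhibitor of HER2 and EGFR. There were 4 groups of 3 libraries: Control at day 0, drug-tolerant persisters (DTP) at day 9, expanded persisters that grow in the drug (DTEP) at month 6, and cells with long-term resistance (LR) at month 9. The label of the Control libraries also reads lapatinib 1 µM, and they were taken as the starting cells from their titles. The study describes parallel plates of 1 cell line in one place and technical replicates in another, so SDs and p-values below cover the spread between these libraries and may not cover that between separate derivations.

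Chaperones work in relays. J-proteins and HSP70 proteins bind unfolded chains and use ATP to cycle between binding and release, with BAG factors and HSP110 proteins driving the exchange of nucleotide. Clients such as kinases, HER2 among them, are then passed through adaptor cochaperones to HSP90, while TRiC folds actin and tubulin and the HSPD1 and HSPE1 pair folds proteins in the mitochondrial matrix. Heat shock factor 1 (HSF1) binds heat shock elements in the promoters of many of these genes and raises their transcription under proteotoxic stress.

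The libraries held 16383363 to 25030482 assigned reads. The luminal markers EPCAM, KRT8, KRT18, KRT19, CDH1, GATA3 and ERBB2 summed to between 10520 and 11263 normalised read counts in Control, between 12878 and 15300 in DTP, between 4240 and 6171 in DTEP and between 3991 and 5450 in LR. The 5 fibroblast markers, of which COL1A1 gave nearly all reads, summed to between 48.1 and 61.7 in Control and DTP, between 79.9 and 121 in DTEP and between 98.4 and 130 in LR, the 4 leukocyte markers to at most 3.58 and the 3 endothelial markers to at most 8.85. The part of these markers in the chaperone changes was not tested. One library stood apart. DTEP replicate 3 correlated with the LR libraries at 0.971 to 0.986 (Pearson, across genes) and with the other DTEP libraries at 0.934 to 0.962, and it was the lowest DTEP library for 37 of 40 chaperone genes (92.5%) against 47.1% of all genes tested. It lay closer to the LR mean than to the mean of the other DTEP libraries for 37 of 40 (92.5%), against 73.3% of all genes tested. Counts of chaperone genes called in the comparisons with DTEP are therefore given with and without it, and the genes whose call it changed there are named below. Counts of groups without overlap, counts above a log2 threshold and counts of other gene lists are given only with it.

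The chaperone genes together made up 1.66% ± 0.0375 of the assigned reads in Control (SD, n = 3), 1.24% ± 0.0232 in DTP, 1.32% ± 0.502 in DTEP and 0.862% ± 0.0828 in LR. The 3 Control and 3 DTP libraries did not overlap, and the wide DTEP range, from 0.758% to 1.72%, was set by DTEP replicate 3 at its lower end. In bulk RNA, fewer cells of a kind and less RNA per cell cannot be told apart. Per kilobase of transcript, HSPA8 was the most abundant chaperone mRNA in Control, at a mean of 1195 normalised read counts per kilobase, followed by HSP90AA1 at 950 and HSP90AB1 at 856. The same 3 genes led in every group, although HSP90AB1 was ahead in DTP (655 per kilobase) and in LR (537 per kilobase).

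Differences were tested with limma on log2(normalised read count + 1), with Benjamini-Hochberg adjustment across the 13794 genes that reached a value of 1 in at least 3 libraries. This filter kept 40 of the 42 chaperone genes. HSPA6 and CRYAB, which are strongly induced by heat in many cells, did not pass: HSPA6 had at most 8 reads in any library and CRYAB at most 3. Because 1 is added before the logarithm, log2 changes understate those of genes with low values.

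From Control to DTP, 6 of 40 chaperone genes rose and 15 fell at an adjusted p below 0.05, while 25.2% of all genes tested rose and 28.8% fell. Their median log2 change was -0.39, against -0.01 over all genes. From DTP to DTEP, 13 rose and 9 fell, beside 35.7% and 32.6% of all genes, with a median of 0.12 against 0.08. From DTEP to LR, 0 rose and 2 fell by limma, beside 3.04% and 4.31% of all genes, with a median of -0.45 against -0.07. By edgeR and DESeq2, too, 0 chaperone genes rose in this step, beside 3.78% and 7.32% of all genes. In LR compared directly with Control, 7 were higher and 21 lower, beside 30.2% and 32.6%, with a median of -0.65 against -0.03. The comparisons share groups, so they are not independent of each other.

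By the plainer measure of groups whose libraries did not overlap, 7 chaperone genes were higher and 25 lower in all DTP than in all Control libraries, beside 37.7% and 39.6% of all genes tested. In DTEP against DTP these counts were 9 and 9, beside 34.5% and 32.8%. In LR against DTEP they were 0 and 3, beside 9.15% and 13.4%, and in LR against Control 7 and 30, beside 37.6% and 39.4%.

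The counts in the later comparisons depended on DTEP replicate 3. It was the lowest DTEP library for 37 of 40 chaperone genes, so the direction in which they shift without it was fixed in advance. Results and adjusted p-values without DTEP replicate 3, here and below, are therefore descriptions and not separate support. Without it, 22 of 40 genes were higher in DTEP than in DTP, beside 38.2% of all genes, and 29 of 40 were lower in LR than in DTEP, beside 28.1% of all genes. When the 5 remaining libraries of each comparison were fitted alone, these counts were 22 (36.2% of all genes) and 20 (16%). In the 11-library fit the 9 genes newly called as higher in DTEP than in DTP were HSPA8, HSP90AA1, HSP90AB1, AHSA1, HSPE1, CCT2, CCT3, CCT4 and CCT7, with log2 changes from 0.39 to 1.04, and HSPA1B, HSPB1 and HSPB11 lost their call as lower. From DTEP to LR, 27 genes were newly called as lower, with log2 changes from -0.39 for DNAJB1 to -1.79 for HSPE1, and the 11 that were not called were HSF1, HSF2, HSPA1A, HSPA1B, HSPA4, HSPA13, HSPB1, DNAJA2, DNAJB2, DNAJB4 and FKBP5.

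Genes of the cell cycle moved in the same comparisons. All 15 proliferation markers examined fell in DTP, 14 rose from DTP to DTEP, 9 fell from DTEP to LR, and their summed level ranged from 3361 to 3413 in Control, between 719 and 746 in DTP, between 2784 and 4566 in DTEP and between 1014 and 2357 in LR. Over all genes tested, 28.8% fell in DTP, 35.7% rose from DTP to DTEP and 4.31% fell from DTEP to LR. The part of the proliferation markers in the chaperone changes was not tested.

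**Figure D1:**
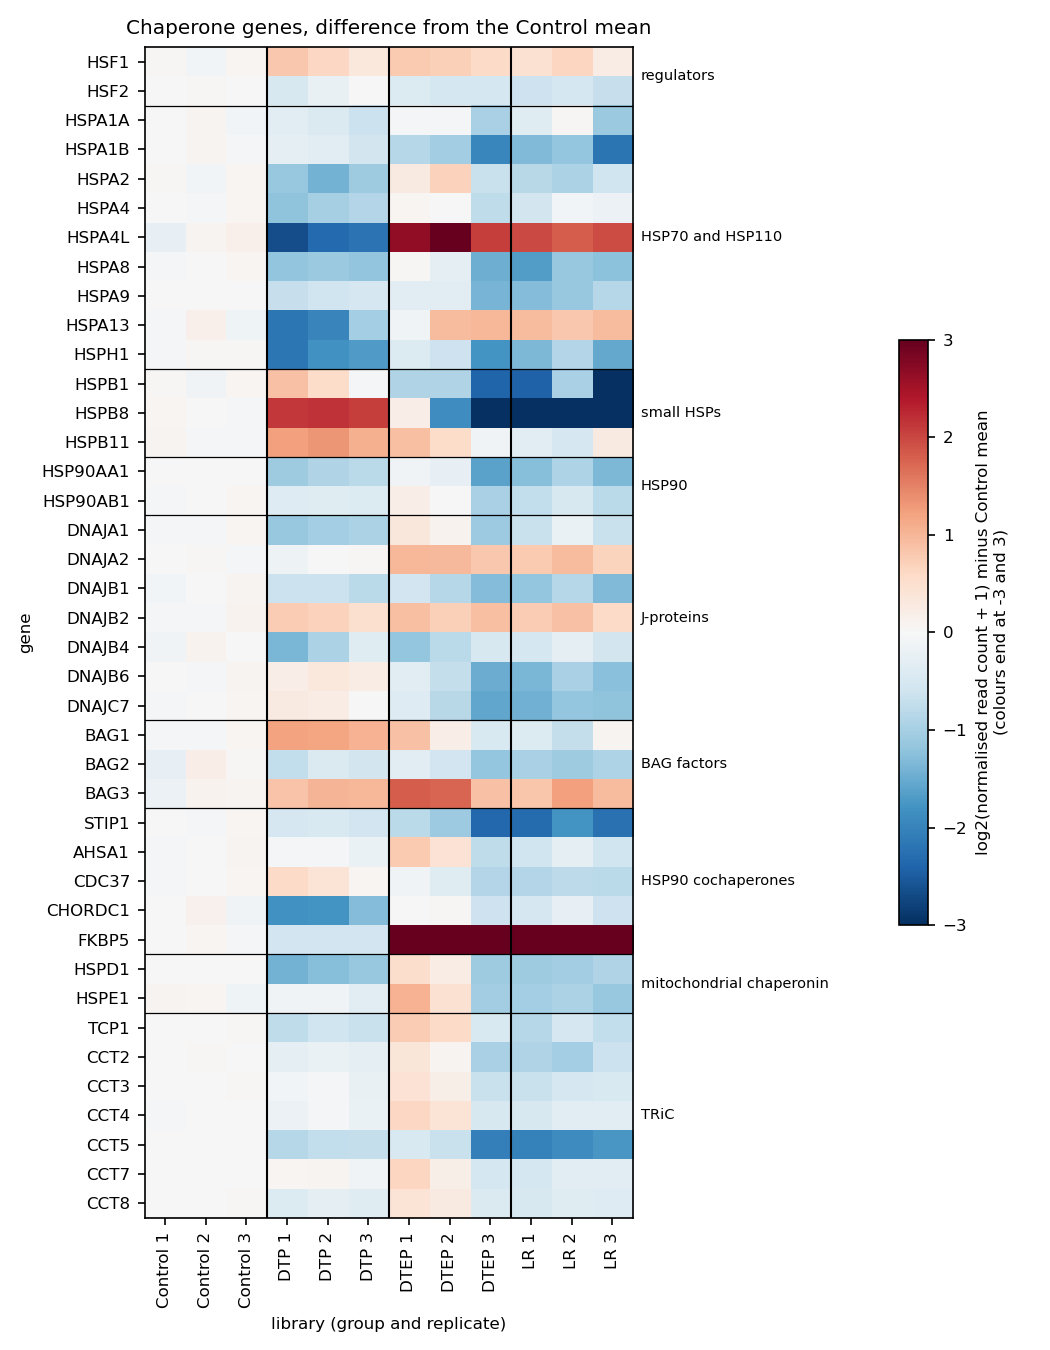
Difference of each library from the Control mean, in log2(normalised read count + 1), for the 40 chaperone genes tested, ordered by role, with colours ending at -3 and 3. The columns of DTEP replicate 3 and of the 3 LR libraries look alike, and HSPB8, HSPA4L and FKBP5 hold the strongest colours.

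Promoter windows of 300 bases, from 250 before to 50 after an annotated transcription start, were taken from RefSeq (GRCh38.p14) for the elements that HSF1 binds and searched on both strands for a strict heat shock element of 3 alternating units, GAANNTTCNNGAA or its reverse complement TTCNNGAANNTTC. A window was given for all but HSF1 and CRYAB. At least 1 match was present in 8 of the 40 genes with a window (20%), compared with 0.608% of the 27305 genes in the whole promoter table and 0.49% of its 35116 windows. The 8 were HSPA6, HSPA8, HSPD1, HSP90AA1, HSP90AB1, DNAJA1, DNAJB6 and CHORDC1. The windows below show how the elements are placed in 4 of them, with each match in capitals. HSPD1 and HSPA6 belong to the promoters listed for display, and CHORDC1 and HSPA8 were chosen after the search for their 3 overlapping and 2 separate matches.
CHORDC1: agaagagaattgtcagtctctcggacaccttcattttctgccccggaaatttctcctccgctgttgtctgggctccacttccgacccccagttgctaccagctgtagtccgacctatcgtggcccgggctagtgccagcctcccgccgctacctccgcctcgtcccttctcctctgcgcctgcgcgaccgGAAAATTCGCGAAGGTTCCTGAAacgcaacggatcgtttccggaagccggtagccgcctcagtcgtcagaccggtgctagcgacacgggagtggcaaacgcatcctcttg
HSPA8: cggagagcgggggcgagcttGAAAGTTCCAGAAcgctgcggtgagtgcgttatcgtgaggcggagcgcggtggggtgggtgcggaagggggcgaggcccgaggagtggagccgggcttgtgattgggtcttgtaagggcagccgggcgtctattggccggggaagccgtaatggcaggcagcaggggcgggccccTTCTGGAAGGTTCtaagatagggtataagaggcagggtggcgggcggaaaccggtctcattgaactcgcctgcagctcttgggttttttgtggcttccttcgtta
HSPD1: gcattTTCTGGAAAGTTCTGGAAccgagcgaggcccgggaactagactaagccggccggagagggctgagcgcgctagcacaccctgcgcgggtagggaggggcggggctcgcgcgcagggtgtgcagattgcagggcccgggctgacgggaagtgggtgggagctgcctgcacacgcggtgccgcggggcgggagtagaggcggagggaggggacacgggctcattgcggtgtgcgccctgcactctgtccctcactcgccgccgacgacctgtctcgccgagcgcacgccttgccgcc
HSPA6: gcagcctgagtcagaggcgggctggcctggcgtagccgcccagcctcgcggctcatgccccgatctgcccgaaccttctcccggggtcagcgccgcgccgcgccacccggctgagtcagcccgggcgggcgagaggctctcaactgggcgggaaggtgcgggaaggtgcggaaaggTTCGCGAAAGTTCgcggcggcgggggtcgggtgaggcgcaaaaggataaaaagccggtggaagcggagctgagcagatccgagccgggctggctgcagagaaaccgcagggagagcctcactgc

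These windows are chr11:90223000-90223299 (minus strand) for CHORDC1, chr11:123062087-123062386 (minus) for HSPA8, chr2:197499791-197500090 (minus, 1 of several annotated starts) for HSPD1 and chr1:161524290-161524589 (plus) for HSPA6. The CHORDC1 matches overlapped each other and began 60, 55 and 50 bases before the start site, so the capitals form 1 run. Those of HSPA8 began 230 and 55 bases before it, those of HSPD1 at 245 and 240 bases before, overlapping, and that of HSPA6 at 74 bases before. Of the 7 genes with a match that could be tested, 5 fell from Control to DTP, with a median log2 change of -1.04, and the others, HSP90AB1 (-0.39) and DNAJB6 (0.24), did not pass. Of the 32 tested genes whose windows held no match, 5 rose and 10 fell, with a median of -0.31, beside 25.2% and 28.8% of all genes tested. From DTP to DTEP 3 of the 7 rose and 1 fell, beside 10 and 8 of the 32. Of all genes tested, 35.7% rose and 32.6% fell. From DTEP to LR 0 rose in either set, and 0 of the 7 and 2 of the 32 fell, beside 3.04% and 4.31% of all genes. In LR against Control 0 of the 7 were higher and 5 lower, beside 6 and 16 of the 32. The shares of all genes there were 30.2% and 32.6%. Genes without a match may still hold elements, since 1 strict form was searched within 300 bases. The 32 include HSPE1, although the HSPD1 matches lie between the HSPD1 start used and HSPE1. A match describes the letters of the window, and binding was not measured here.

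Among the regulators, HSF1, the main transcription factor of the heat shock response, measured 82.6, 76.7 and 84.2 normalised read counts in Control, 143, 126 and 101 in DTP, 139, 133 and 122 in DTEP, and 112, 128 and 95.2 in LR. Every later library lay above every Control library. The gene rose in DTP (log2 change 0.58, SE 0.15, limma adjusted p = 0.00608) and was still higher in LR than in Control (0.45, adjusted p = 0.0209). The latter call was lost without Control replicate 2, LR replicate 1 or LR replicate 2 (limma adjusted p = 0.0724, 0.0529 and 0.0841). HSF2, a related factor with roles in development, measured 31.1, 32.6 and 31.3 in Control and 20.1, 21.6 and 19.2 in LR, where it was lower (-0.62, SE 0.15, limma adjusted p = 0.00307). No step between successive groups passed the test for HSF2.

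In the HSP70 and HSP110 families, all 9 tested genes had every DTP library below every Control library, as did 39.6% of all genes tested, and 6 of the 9 passed the test as lower, beside 28.8% of all genes. Their summed share of reads was 0.436% ± 0.0112 in Control and 0.223% ± 0.00733 in DTP (SD, n = 3).

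HSPA8, the constitutive cytosolic HSP70, measured 2636, 2674 and 2807 normalised read counts in Control, 1189, 1250 and 1200 in DTP, 2779, 2226 and 981 in DTEP, and 839, 1222 and 1158 in LR. It was 2.23-fold lower in DTP than in Control (log2 change -1.16, SE 0.31, limma adjusted p = 0.00839) and 2.52-fold lower in LR than in Control (-1.35, adjusted p = 0.00252). DTEP replicate 1 was at the Control level and DTEP replicate 3 was at the LR level. DTEP replicate 2 lay below every Control library and above every DTP library. With all libraries, neither the step from DTP to DTEP (0.59, adjusted p = 0.114) nor that from DTEP to LR (-0.78, adjusted p = 0.106) passed in limma. Without DTEP replicate 3 they were 1.04 (adjusted p = 0.000228) and -1.23 (adjusted p = 0.000284).

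HSPH1, an HSP110 protein that exchanges nucleotide on HSP70, fell 3.70-fold in DTP, from 484, 511 and 513 to 111, 142 and 154 (log2 change -1.89, SE 0.30, limma adjusted p = 0.000299). It then rose to 379, 325 and 143 in DTEP (0.95, adjusted p = 0.0144), a call lost without DTP replicate 1, DTEP replicate 1 or DTEP replicate 2 (adjusted p = 0.0597, 0.0596 and 0.0618), and it measured 197, 272 and 171 in LR, below every Control library (-1.26, adjusted p = 0.00313). HSPA4, another HSP110 family member, followed with -1.03 in DTP and 0.80 in DTEP, and both passed. In LR it measured 161, 222 and 207 against 232, 230 and 244 in Control. Its log2 change of -0.27 did not pass (limma adjusted p = 0.263), although the groups did not overlap.

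HSPA4L, an HSP110 relative that is abundant in testis, had the widest swing of the family. The gene spans chr4:127781796-127840733. It measured 4.88, 6.47 and 6.85 normalised read counts in Control, 0.104, 0.395 and 0.518 in DTP (2, 8 and 9 reads), 43.6, 71.1 and 28.7 in DTEP, and 26.7, 23.6 and 26.4 in LR. No pair of groups overlapped. The gene fell 17.9-fold in DTP (log2 change -2.40, SE 0.28, limma adjusted p = 3.46e-05), was 141-fold higher in DTEP than in DTP (5.11, adjusted p = 2.94e-08) and was 4.21-fold higher in LR than in Control (1.92, adjusted p = 7.79e-05). The decrease from DTEP to LR did not pass with all libraries (-0.79, limma adjusted p = 0.082) and did without DTEP replicate 3 (-1.10, adjusted p = 0.00283). Its ratio to HSPA4 within libraries went from a mean of 0.0257 in Control to 0.00284 in DTP, 0.229 in DTEP and 0.133 in LR.

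HSPA13, a microsomal member of the HSP70 family (chr21:14371115-14383146), also fell in DTP and rose in DTEP. It measured 23.0, 26.0 and 21.4 in Control, 4.38, 5.18 and 11.1 in DTP, 21.5, 46.3 and 47.7 in DTEP, and 46.1, 41.9 and 46.1 in LR. The gene was 3.41-fold lower in DTP than in Control (log2 change -1.72, SE 0.32, limma adjusted p = 0.00091), 5.60-fold higher in DTEP than in DTP (2.34, adjusted p = 4.61e-05) and 1.91-fold higher in LR than in Control (0.91, adjusted p = 0.0283). The DTEP and LR libraries overlapped. The rise over Control was lost without Control replicate 1 or 3 or LR replicate 1 or 3 (limma adjusted p from 0.0635 to 0.0807). HSPA4L and HSPA13 were the only HSP70 or HSP110 genes that passed as higher in LR than in Control, beside 5 of the 9 that passed as lower. Over all genes tested, 30.2% passed as higher and 32.6% as lower.

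The stress-inducible HSP70 genes HSPA1A (chr6:31815543-31817942) and HSPA1B (chr6:31827738-31830254) lie 9795 bases apart and encode the same chaperone. Their 1923 coding bases differ at 4 positions (99.8% identity), so reads can be split between them in ways set by the aligner. HSPA1A measured 81.9, 88.1 and 78.2 in Control, 66.0, 61.2 and 52.6 in DTP, 80.9, 79.4 and 41.5 in DTEP, and 64.0, 85.0 and 37.8 in LR, and none of its comparisons passed in limma (adjusted p from 0.168 to 0.775). HSPA1B measured 81.9, 87.6 and 78.9 in Control, 66.8, 64.6 and 56.5 in DTP, 45.4, 39.5 and 20.5 in DTEP, and 32.4, 36.4 and 17.2 in LR. HSPA1B fell from DTP to DTEP (log2 change -0.89, SE 0.29, limma adjusted p = 0.0179) and was 2.88-fold lower in LR than in Control (-1.56, adjusted p = 0.000599). The fall from DTP to DTEP was lost without DTP replicate 1 (limma adjusted p = 0.0539) or DTEP replicate 3 (-0.55, adjusted p = 0.0629).

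The ratio of HSPA1A to HSPA1B was 0.991 to 1.01 in Control and 0.931 to 0.988 in DTP, and then 1.78 to 2.02 in DTEP and 1.97 to 2.33 in LR, with no overlap between the early and the late groups. DTEP replicate 3, at 2.02, kept with the other DTEP libraries in this ratio. When both genes were summed, the drop from DTP to DTEP was -0.32 and did not pass (limma adjusted p = 0.347), and LR remained below Control (-0.93, adjusted p = 0.0146). The immediate early genes FOS, FOSB, JUN, JUNB, EGR1, ATF3, IER2 and IER3, which can rise when cells are handled, were also counted. The groups also differed in time in lapatinib, so handling and treatment cannot be told apart in these genes. Of these 8, 1 rose in DTP, beside 25.2% of all genes. From DTP to DTEP 3 rose and 1 fell, beside 35.7% and 32.6%. From DTEP to LR their log2 changes ran from -0.81 to 1.06 with no limma call. In LR 2 were higher than in Control, beside 30.2% of all genes. Their summed level lay between 262 and 307 in Control, between 258 and 426 in DTP, between 121 and 842 in DTEP and between 459 and 805 in LR, and their part in the levels of the inducible chaperones was not tested.

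The remaining family members were HSPA2, HSPA9 and the near-silent HSPA6. HSPA2, best known from spermatogenesis, was low throughout, with 0 to 81 reads per library and 4, 0 and 5 reads in DTP. It passed as lower in DTP (log2 change -1.21), higher in DTEP than in DTP (1.31) and lower in LR than in Control (-0.79, lost without Control replicate 1 or 3 or LR replicate 1 or 2, limma adjusted p from 0.0585 to 0.0724), and without DTEP replicate 3 also as lower in LR than in DTEP (-1.28, adjusted p = 0.000209). It met the filter on low values through the Control and DTEP libraries. HSPA9, the HSP70 of the mitochondrial matrix, went from 777, 763 and 773 in Control to 310, 351 and 429 in LR (-1.10, SE 0.25, limma adjusted p = 0.00215), and its change in DTP did not pass (-0.60, adjusted p = 0.0587). That change passed without DTEP replicate 3 (adjusted p = 0.00117), as did a decrease from DTEP to LR (-0.78, adjusted p = 0.000915). HSPA6, whose promoter match is shown above, had 8, 7 and 2 reads in DTEP and 0 to 2 reads in every other library.

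**Figure D2:**
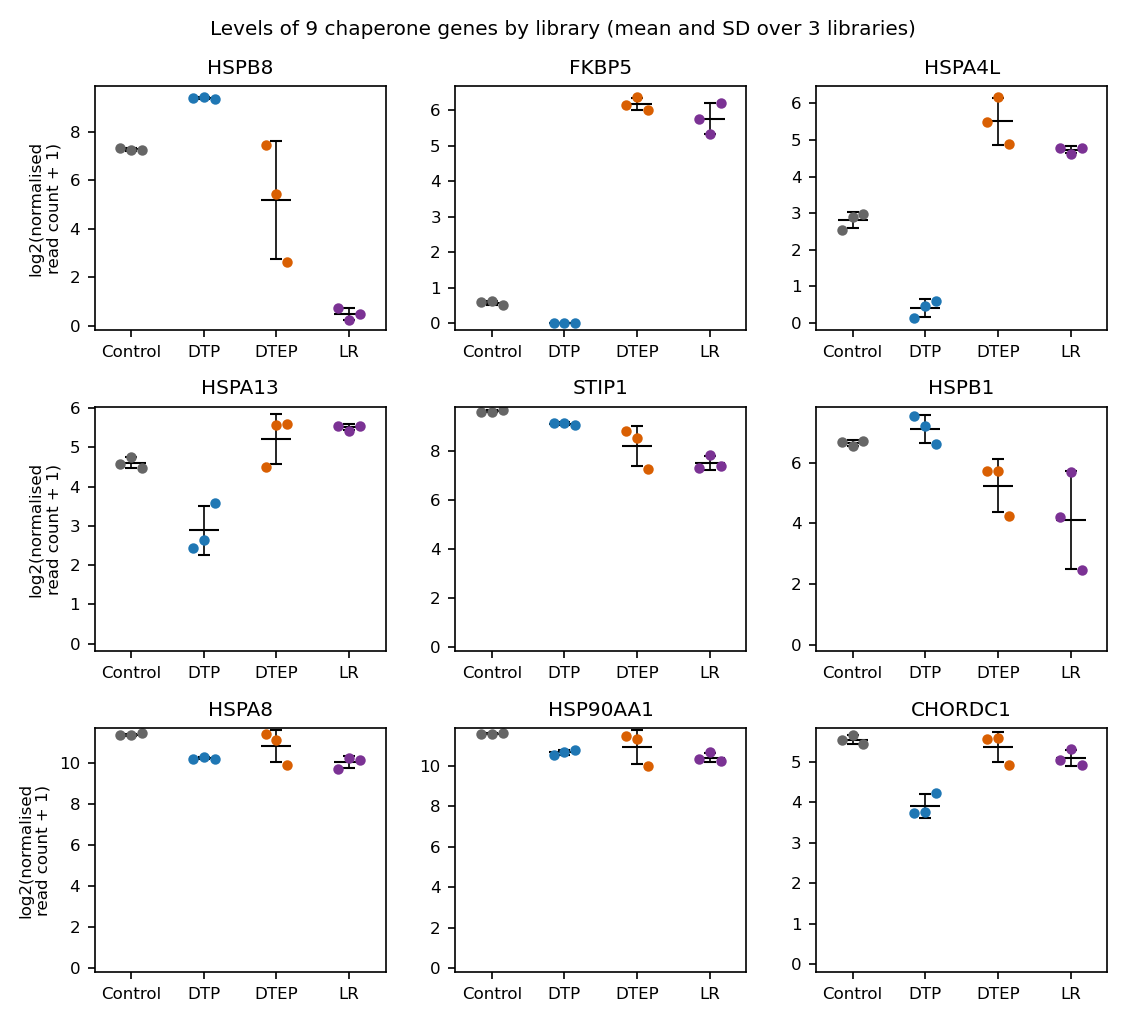
Levels of 9 chaperone genes in each library as log2(normalised read count + 1), with points for the 3 libraries of a group and the mean and SD as bars. HSPB8 peaks in DTP and is near 0 in LR, FKBP5 is at 0 in DTP and above 39 normalised read counts in every DTEP and LR library, and DTEP replicate 3 (right-hand DTEP point) is the lowest of its group in 8 of the 9 panels.

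Small heat shock proteins are ATP-independent holdases that bind unfolding proteins. Of the 3 genes tested under this role, HSPB8 and HSPB11 were higher in DTP and HSPB1 did not pass, beside 25.2% of all genes higher. HSPB11 is listed by RefSeq as an intraflagellar transport gene, so this count does not describe the holdases as a class. In DTP, HSPB8 held 37943 reads, HSPB1 8131 and HSPB11 3090. HSPB8, which works with BAG3 to route misfolded proteins to autophagy, spans chr12:119178931-119194746. It measured 159, 152 and 149 normalised read counts in Control, 666, 688 and 647 in DTP, 176, 41.8 and 5.16 in DTEP, and 0.634, 0.166 and 0.388 in LR (15, 3 and 8 reads). The levels rose and then fell to nearly nothing, and each successive pair of groups was free of overlap.

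HSPB8 was 4.35-fold higher in DTP than in Control (log2 change 2.11, SE 0.82, limma adjusted p = 0.0465), 8.96-fold lower in DTEP than in DTP (-4.21, adjusted p = 0.000655), 188-fold lower in LR than in DTEP (-4.70, adjusted p = 0.0103) and 388-fold lower in LR than in Control (-6.80, adjusted p = 1.74e-05). Its 3 DTEP libraries spread over more than an order of magnitude, and this spread enters the SE of every comparison in the shared fit. Without DTEP replicate 1, DTEP was 28.4-fold lower than DTP and LR 59.3-fold lower than DTEP. The log2 changes without DTEP replicate 3 were -2.94 and -5.98, and both passed. The call in DTP was lost in 13 of 21 alternatives, which included leaving out any library but DTEP replicate 1 or 3 (limma adjusted p from 0.0575 to 0.103), and it had an adjusted p of 0.000516 without DTEP replicate 3. From DTEP to LR the call was lost without DTEP replicate 2 (adjusted p = 0.0542). The direction held in all 4 comparisons under every alternative.

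HSPB1 (HSP27), a stress-inducible and estrogen-regulated holdase, measured 102, 91.8 and 103 in Control, 183, 145 and 97.1 in DTP, 52.3, 52.4 and 17.8 in DTEP, and 17.5, 50.1 and 4.55 in LR. The Control and DTP libraries overlapped and did not pass (log2 change 0.47, SE 0.64, limma adjusted p = 0.561). The gene was 3.47-fold lower in DTEP than in DTP (-1.87, adjusted p = 0.0201) and 4.11-fold lower in LR than in Control (-2.52, adjusted p = 0.00427). Without DTEP replicate 3 the former was -1.37 (adjusted p = 0.0782), and without DTP replicate 1 or 2 it did not pass either (0.0711 and 0.0509). LR replicate 2 was the highest of its group, and without it LR was 8.97-fold lower than Control (-3.30). HSPB11, listed by RefSeq as the intraflagellar transport gene IFT25, rose 2.37-fold in DTP (1.21, SE 0.25, limma adjusted p = 0.00167), fell in DTEP (-0.75, adjusted p = 0.0183, lost without DTP replicate 2 at 0.0616 or DTEP replicate 3, -0.47 at 0.0601) and in LR was near its Control level (-0.18, adjusted p = 0.541). HSPB11 was lower in LR than in DTEP without DTEP replicate 3 (-0.92, limma adjusted p = 0.00411). CRYAB, the lens protein alpha B-crystallin, was listed with 0 to 3 reads in each library.

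Both HSP90 genes were lower in LR than in Control. HSP90AA1, the stress-inducible isoform, measured 3048, 3046 and 3109 in Control, 1474, 1650 and 1764 in DTP, 2873, 2596 and 1002 in DTEP, and 1267, 1623 and 1209 in LR. It was 1.88-fold lower in DTP than in Control (log2 change -0.92, SE 0.33, limma adjusted p = 0.0324) and 2.25-fold lower in LR than in Control (-1.18, adjusted p = 0.00754). The former was lost without any 1 of the Control and DTP libraries (limma adjusted p from 0.0555 to 0.102). HSP90AB1, the constitutive isoform, measured 2108, 2187 and 2268 in Control, 1662, 1711 and 1649 in DTP, 2519, 2155 and 1122 in DTEP, and 1305, 1567 and 1241 in LR. Its 1.31-fold lower level in DTP did not pass (-0.39, SE 0.26, limma adjusted p = 0.226), although the groups did not overlap, and its 1.60-fold lower level in LR than in Control did (-0.68, adjusted p = 0.0358). The latter was lost without any 1 of the Control or DTP libraries or LR replicate 1 or 3 (limma adjusted p from 0.0507 to 0.0942).

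The ratio of HSP90AA1 to HSP90AB1 was 1.40 ± 0.0385 in Control and 0.974 ± 0.0919 in DTP, 1.08 ± 0.165 in DTEP and 0.994 ± 0.0365 in LR (SD, n = 3), so that every later library had a lower ratio than every Control library. Without DTEP replicate 3, HSP90AA1 rose from DTP to DTEP (log2 change 0.75, limma adjusted p = 0.00125) and fell from DTEP to LR (-1.01, adjusted p = 0.000522). HSP90AB1 did the same (0.48, adjusted p = 0.0104, and -0.77, adjusted p = 0.00133), and its decrease in DTP then passed (adjusted p = 0.0201). With all libraries none of these passed.

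The J-proteins, which deliver substrates to HSP70 and start its ATPase, did not move together. DNAJB1 (HSP40), a heat-inducible partner of HSP70, measured 353, 373 and 391 in Control, 238, 237 and 211 in DTP, 249, 206 and 151 in DTEP, and 165, 206 and 149 in LR. It was 1.63-fold lower in DTP (log2 change -0.70, SE 0.18, limma adjusted p = 0.00567) and 2.15-fold lower in LR (-1.11, adjusted p = 0.000172), both compared with Control. DNAJA1, a farnesylated cochaperone of HSPA8, fell 2.06-fold in DTP and rose again in DTEP, with log2 changes of -1.04 (limma adjusted p = 0.00956) and 0.82 (adjusted p = 0.023). The rise was lost without DTP replicate 1 or 2 or DTEP replicate 1 or 2 (limma adjusted p from 0.0518 to 0.0942), and it was 1.26 without DTEP replicate 3.

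DNAJC7, which bridges HSP70 and HSP90, had the largest change of the J-proteins. It measured 109, 109 and 115 in Control, 133, 130 and 110 in DTP, 84.5, 62.2 and 37.1 in DTEP, and 40.2, 49.5 and 47.9 in LR. The gene fell from DTP to DTEP (log2 change -1.08, SE 0.23, limma adjusted p = 0.00126) and was 2.42-fold lower in LR than in Control (-1.26, adjusted p = 0.000484). DNAJB6, an inhibitor of amyloid and polyglutamine aggregation, had lower levels but nearly the same log2 changes. They were -1.08 from DTP to DTEP and -1.19 in LR against Control, and both passed.

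DNAJA2 and DNAJB2 went the other way. DNAJA2, a cytosolic J-protein of the same class as DNAJA1, was level in DTP (log2 change -0.04) and then 1.97-fold higher in DTEP, at 220, 215 and 192 against 98.3, 108 and 112 (0.97, SE 0.12, limma adjusted p = 1.34e-05). It was still higher in LR than in Control (0.79, adjusted p = 7.92e-05). DNAJB2, which carries ubiquitin-interacting motifs and is best known from neurons, rose in DTP (0.64, limma adjusted p = 0.00135) and was higher in LR than in Control (0.73, adjusted p = 0.000358). DNAJB4, a paralog of DNAJB1, was low, at 3.24 to 10.8 normalised read counts, and fell in DTP (-0.89, limma adjusted p = 0.0101, and 0.0522 without DTP replicate 1).

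Of the BAG factors, which act on HSP70 proteins, BAG1 and BAG3 rose in DTP and BAG2 fell. BAG1 measured 105, 105 and 111 in Control, 248, 243 and 221 in DTP, 197, 124 and 77.4 in DTEP, and 79.5, 64.1 and 113 in LR. It was 2.22-fold higher in DTP than in Control (log2 change 1.14, SE 0.28, limma adjusted p = 0.00463), fell in DTEP (-0.93, adjusted p = 0.0104, and -0.60, adjusted p = 0.0315, without DTEP replicate 3) and in LR overlapped with Control (-0.35, adjusted p = 0.288).

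BAG3, the stress-inducible partner of HSPB8 and HSP70 in selective autophagy, stayed above Control. It measured 22.6, 27.7 and 27.7 in Control, 47.8, 53.1 and 52.6 in DTP, 94.2, 89.8 and 48.7 in DTEP, and 47.2, 62.0 and 50.6 in LR. The gene was 1.97-fold higher in DTP (log2 change 0.95, SE 0.22, limma adjusted p = 0.00344) and 2.05-fold higher in LR (1.00, adjusted p = 0.00185), both compared with Control. The further rise from DTP to DTEP was just past the threshold (0.53, limma adjusted p = 0.0494), was lost in 19 of 23 alternatives, among them any single library but DTEP replicate 3 left out (adjusted p from 0.0505 to 0.176), and the groups overlapped. It was 0.83 without DTEP replicate 3 (adjusted p = 0.000295). BAG3 and HSPB8 were thus both raised in DTP, and in LR BAG3 was high while HSPB8 was near 0. The ratio of BAG3 to BAG1 was 0.243 ± 0.0250 in Control and 0.216 ± 0.0226 in DTP, against 0.611 ± 0.126 in DTEP and 0.669 ± 0.268 in LR (SD, n = 3). BAG2, an inhibitor of the ubiquitin ligase CHIP, was low, at 0.898 to 3.86, and lower than Control in DTP (log2 change -0.57, limma adjusted p = 0.0319). That call was lost without Control replicate 2 or 3 or DTP replicate 1 or 3, with a pseudocount of 0.1 and in edgeR and DESeq2 (adjusted p from 0.0574 to 0.12). BAG2 was also 2.91-fold lower than Control in LR (limma adjusted p = 0.00107). Its span overlaps the gene RAB23 by 2842 bases, and the counter ignored strand by default, so some reads may be shared or lost.

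**Figure D3:**
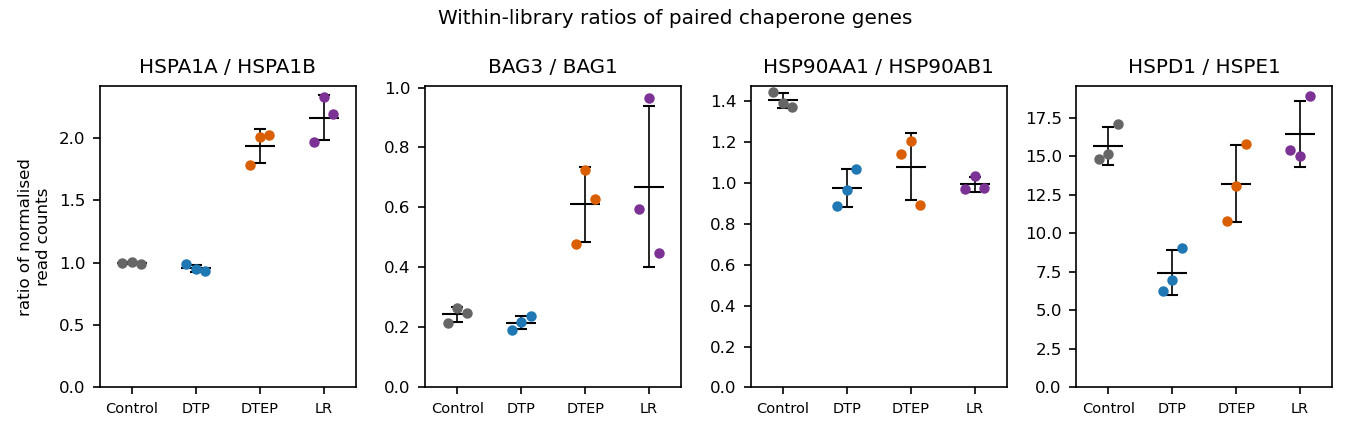
Ratios of normalised read counts within each library for 4 pairs of chaperone genes, with points for the 3 libraries of a group and the mean and SD as bars. HSPA1A and HSPA1B are near 1 to 1 in Control and DTP and at or above 1.78 in every DTEP and LR library, and the BAG3 to BAG1 ratio is higher in every DTEP and LR library than in Control.

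Of the HSP90 cochaperones, FKBP5 changed most. FKBP5 (FKBP51, chr6:35573590-35728583) is an immunophilin that holds steroid receptors in complex with HSP90 and is itself a classical target of the glucocorticoid, progesterone and androgen receptors. It measured 0.506, 0.544 and 0.419 normalised read counts in Control (11, 10 and 9 reads) and had 0 reads in all 3 DTP libraries. In DTEP it measured 70.1, 81.6 and 63.8, and in LR 53.6, 39.4 and 72.4. The late and early groups were separated by a wide gap, DTEP replicate 3 included.

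Taking 3 reads per library as the limit that 0 reads allow, FKBP5 was at least 416-fold higher in DTEP than in DTP and at least 2.83-fold lower in DTP than in Control. Its log2 changes were 6.18 from DTP to DTEP (SE 0.21, limma adjusted p = 8.17e-10) and -0.57 from Control to DTP (adjusted p = 0.0352), and the latter was lost in 8 of 22 alternatives, among them any 1 of the Control or DTP libraries left out (adjusted p from 0.0679 to 0.1). LR was 113-fold higher than Control (5.19, adjusted p = 2.47e-09) and overlapped with DTEP (-0.41, adjusted p = 0.178). FKBP5 passed the filter on low values through its DTEP and LR libraries.

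STIP1 (HOP), the adaptor that joins HSP70 to HSP90, had its lowest group mean in LR. It measured 781, 772 and 820 in Control, 560, 572 and 530 in DTP, 450, 374 and 154 in DTEP, and 158, 226 and 166 in LR. The change in DTP did not pass (log2 change -0.51, SE 0.31, limma adjusted p = 0.18), although the groups did not overlap, and that from DTP to DTEP did (-0.90, adjusted p = 0.0207, lost without DTP replicate 1 at 0.0519 or DTP replicate 2 at 0.0544), with -0.43 (adjusted p = 0.0238) without DTEP replicate 3. From DTEP to LR the groups overlapped and the change did not pass (-0.71, adjusted p = 0.129), and it did without DTEP replicate 3 (-1.18, adjusted p = 0.000181). LR was 4.31-fold lower than Control (-2.12, adjusted p = 7.9e-05).

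CHORDC1, a zinc-binding HSP90 cochaperone whose promoter holds the 3 overlapping matches shown above, measured 45.3, 49.6 and 42.2 in Control, 12.3, 12.4 and 17.9 in DTP, 46.2, 47.0 and 29.5 in DTEP, and 32.1, 38.6 and 29.5 in LR. It fell 3.22-fold in DTP (log2 change -1.64, SE 0.21, limma adjusted p = 6.27e-05) and rose 2.88-fold in DTEP (1.45, adjusted p = 5.87e-05), to near its Control level. CDC37, the cochaperone that brings kinases to HSP90, was 1.29-fold higher in DTP with overlapping groups (0.35, limma adjusted p = 0.133), and was lower in DTEP than in DTP (-0.80, adjusted p = 0.00212) and in LR than in Control (-0.82, adjusted p = 0.00207). AHSA1, which stimulates the ATPase of HSP90, passed in none of the 4 comparisons with all libraries (limma adjusted p from 0.146 to 0.83), and its LR libraries, at 136 to 171, lay below its Control libraries, at 199 to 219. It passed, without DTEP replicate 3, as higher in DTEP than in DTP (0.70, adjusted p = 0.000754), lower in LR than in DTEP (-1.11, adjusted p = 0.000146) and lower in LR than in Control (-0.49, adjusted p = 0.0038).

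The mitochondrial chaperonin is encoded head to head by HSPD1 (HSP60, chr2:197486584-197500274) and HSPE1 (HSP10, chr2:197500379-197503449), whose annotated ends are 104 bases apart. HSPD1 measured 719, 721 and 724 in Control, 267, 298 and 326 in DTP, 1035, 838 and 344 in DTEP, and 342, 350 and 389 in LR. It was 2.43-fold lower in DTP than in Control (log2 change -1.28, SE 0.31, limma adjusted p = 0.00396), 2.49-fold higher in DTEP than in DTP (1.17, adjusted p = 0.00463) and 2.0-fold lower in LR than in Control (adjusted p = 0.0128). From DTEP to LR its log2 change was -0.89 (adjusted p = 0.0771), and -1.37 (adjusted p = 3.48e-05) without DTEP replicate 3.

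HSPE1 measured 48.5, 47.7 and 42.3 in Control, 42.6, 42.9 and 35.9 in DTP, 96.0, 64.0 and 21.7 in DTEP, and 22.3, 23.4 and 20.5 in LR. Unlike HSPD1 it did not pass in DTP (log2 change -0.19, SE 0.38, limma adjusted p = 0.708), and the ratio of HSPD1 to HSPE1 was 15.7 ± 1.24 in Control against 7.43 ± 1.46 in DTP (SD, n = 3). Without DTEP replicate 3, HSPE1 rose from DTP to DTEP (0.94, limma adjusted p = 0.000401, against 0.34 and 0.449 with it) and fell from DTEP to LR (-1.79, adjusted p = 3.68e-05, against -1.18 and 0.0687). HSPE1 was 2.09-fold lower in LR than in Control (-1.03, limma adjusted p = 0.0328), a call lost without any 1 of those 6 libraries (from 0.0573 to 0.0799). HSPE1 lies within the span of the annotated readthrough gene HSPE1-MOB4, which is listed at 0 in every library. Reads that fall in both gene models are left unassigned by the default settings of the counter, so the level of HSPE1 may be understated and its ratio to HSPD1 is best compared between groups.

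TRiC, the cytosolic chaperonin, was represented by 7 of its subunit genes, TCP1, CCT2, CCT3, CCT4, CCT5, CCT7 and CCT8. Their log2 changes in DTP ran from -0.77 to 0.02, and only TCP1 passed (-0.68, SE 0.25, limma adjusted p = 0.0356). TCP1 measured 278, 276 and 285 in Control, 165, 183 and 176 in DTP, 477, 419 and 205 in DTEP, and 155, 198 and 169 in LR. It rose from DTP to DTEP (0.98, adjusted p = 0.00376), fell from DTEP to LR (-0.99, adjusted p = 0.0375, lost in 13 of 23 alternatives) and was lower in LR than in Control (-0.69, adjusted p = 0.0279). The call in DTP was lost without any 1 of the Control and DTP libraries (limma adjusted p from 0.069 to 0.0994), that from DTEP to LR without any library but DTEP replicate 3 (from 0.0527 to 0.143), and that in LR against Control without any Control library or LR replicate 1 or 3 (from 0.0612 to 0.0885). The end of TCP1 overlaps the gene ACAT2 by 615 bases, and the counter ignored strand by default, so some reads may be shared or lost.

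CCT5 changed most among the subunits. It measured 900, 905 and 922 in Control, 498, 545 and 553 in DTP, 663, 568 and 217 in DTEP, and 222, 244 and 270 in LR, which was 3.71-fold lower than Control (log2 change -1.89, SE 0.31, limma adjusted p = 0.000224). Its change in DTP was -0.77 (adjusted p = 0.0544, and 9.73e-05 without DTEP replicate 3). CCT2 was also lower in LR than in Control (-0.86, limma adjusted p = 0.013), while CCT3 (-0.55), CCT4 (-0.39), CCT7 (-0.39) and CCT8 (-0.41) did not pass. CCT8 passed as higher in DTEP than in DTP (0.44, limma adjusted p = 0.0478), a call lost in 17 of 23 alternatives, among them any library but DTEP replicate 3 left out (adjusted p from 0.057 to 0.175), and its value was 0.70 without that library. All 7 were, without DTEP replicate 3, lower in LR than in DTEP, with log2 changes from -0.75 to -1.37, beside 28.1% of all genes. In all 7 subunits every LR library lay below every Control library, as did 39.4% of all genes tested.

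**Figure D4:**
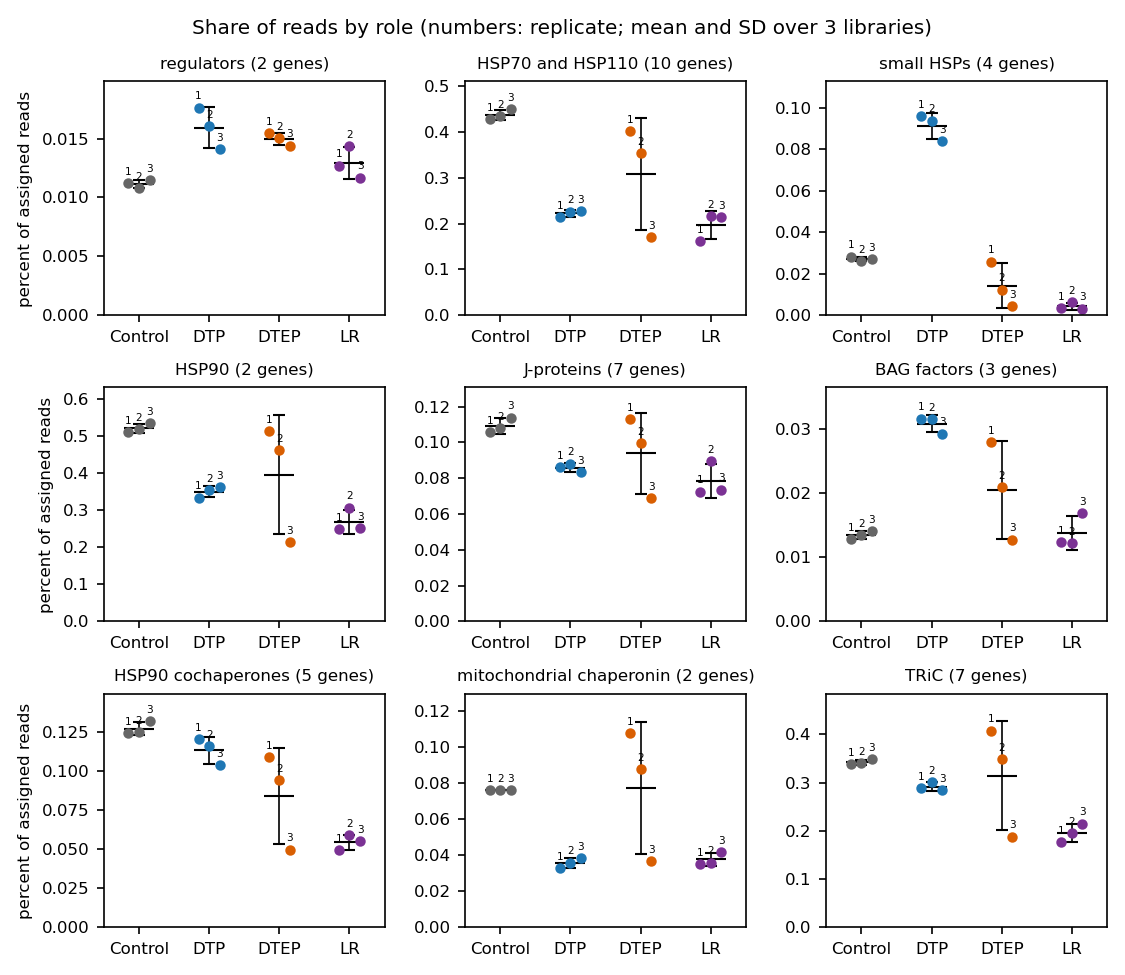
Share of assigned reads (percent) taken by each role group in every library, with numbered points for the replicates and the mean and SD as bars. The HSP70, HSP90 and mitochondrial chaperonin shares are lower in DTP and LR than in Control, the small heat shock protein and BAG factor shares are highest in DTP, and DTEP replicate 3 is the lowest DTEP point in all 9 panels.

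With a log2 change of more than 2 in size asked for as well, few chaperone genes remained. In DTP these were HSPB8 (higher) and HSPA4L (lower), beside 1.01% and 3.9% of all genes. From DTP to DTEP they were FKBP5, HSPA4L and HSPA13 (higher) and HSPB8 (lower), beside 8.13% and 7.02%. HSPB8 was the only one that was lower from DTEP to LR, beside 0.457%. In LR against Control FKBP5 was higher and HSPB8, HSPB1 and STIP1 were lower, beside 5.03% and 7.8%.

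**Figure D5:**
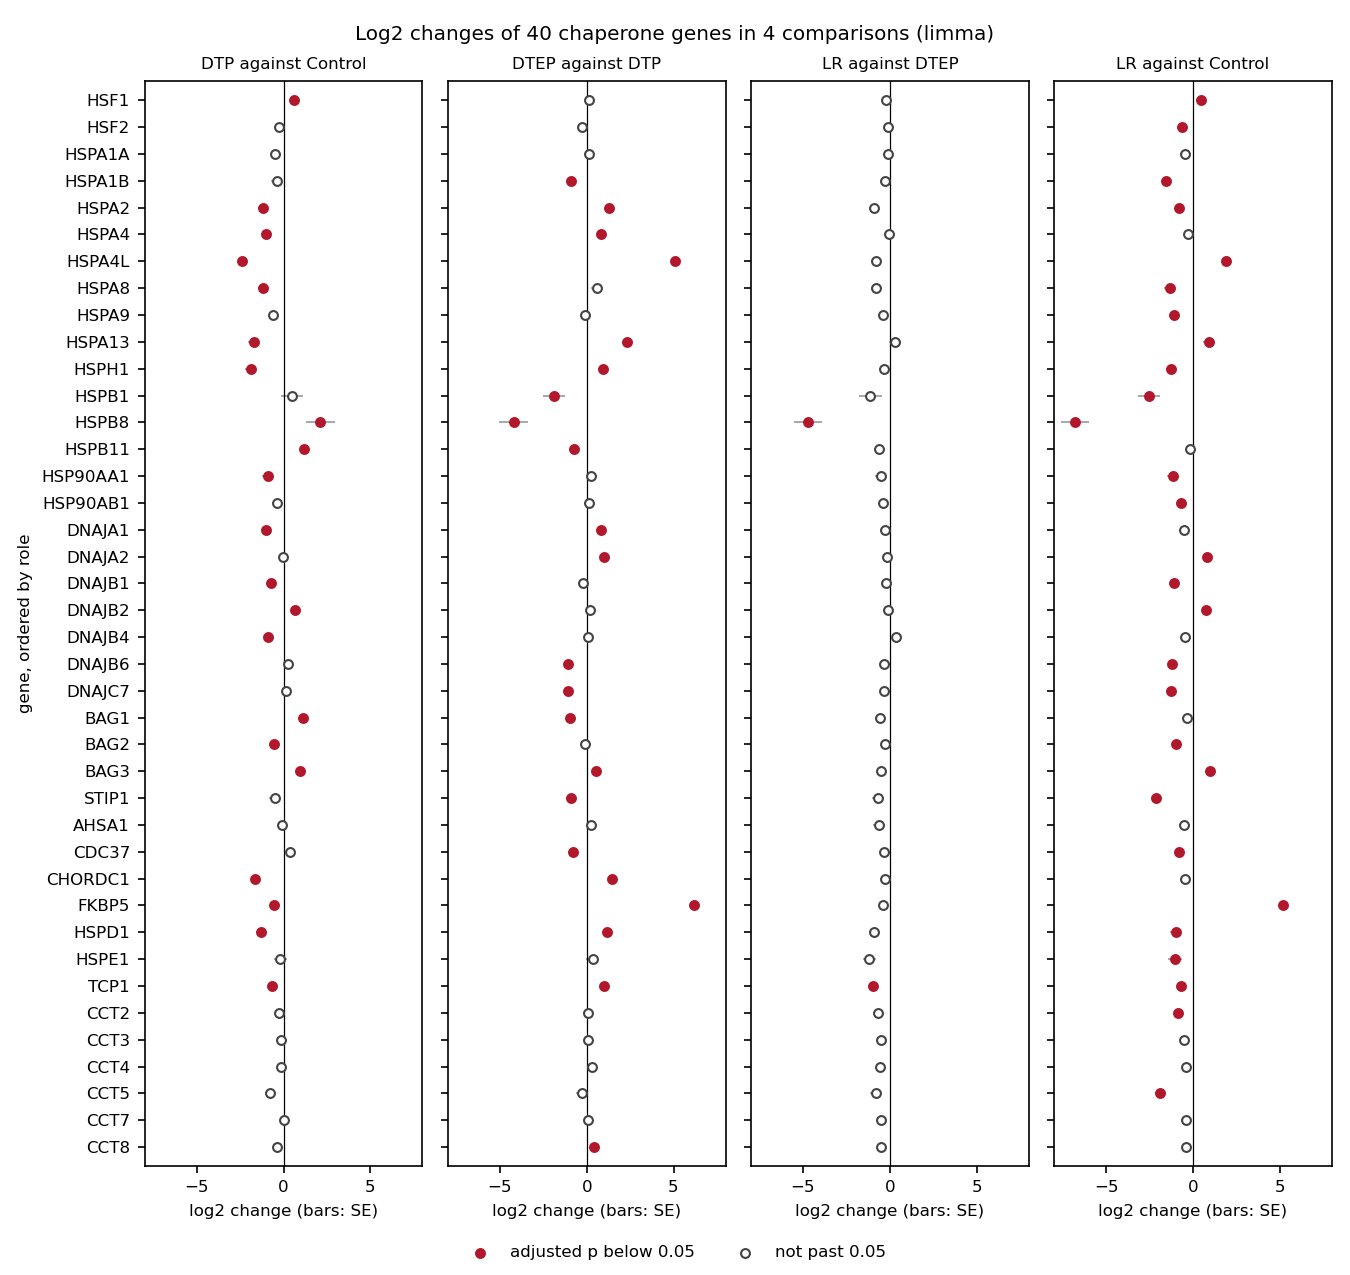
Log2 change and SE from limma for the 40 chaperone genes tested, in 4 comparisons, with filled points for an adjusted p below 0.05. Filled points lie mostly left of 0 in DTP against Control (15 lower, 6 higher) and in LR against Control (21 lower, 7 higher), and only HSPB8 and TCP1 are filled in LR against DTEP.

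The wider chaperone network outside this set was counted for comparison, from a list of 83 genes of which 69 were tested. It had 18 genes higher and 18 lower in DTP, 20 and 18 from DTP to DTEP, 3 lower from DTEP to LR, and 10 and 24 in LR against Control. The shares over all genes tested were 25.2% and 28.8%, 35.7% and 32.6%, 4.31% lower, and 30.2% and 32.6%. Its median log2 changes were 0.02, 0.01, -0.32 and -0.26. The largest changes that passed included PFDN4, a prefoldin subunit that hands actin and tubulin to TRiC, which was lower in LR than in Control (log2 change -4.16, limma adjusted p = 3.91e-07), and the prefoldin subunit VBP1, which was higher in DTEP than in DTP (3.41, adjusted p = 2.84e-08). HSPBAP1, named for binding to HSPB1, rose in DTP (1.79) and fell in DTEP (-2.22), and both passed.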

How the data were processed

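BT474 mRNA libraries were made with a stranded kit, aligned by the authors with Rsubread to hg38 and assigned to RefSeq gene models with default settings, which ignore strand; edgeR is named in the submitters' processing notes. The deposited table holds a normalised signal, read counts scaled to a common TMM-adjusted library size (as CPM is). All 199680 values above 0 (100%) were whole multiples, within 1e-06, of the value of 1 read. Rows without a symbol held 1.80% of reads. Groups came from the labels.

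limma 3.58.1 in R 4.3.3 was fitted to log2(value + 1) of all 12 libraries, with trended moderation and no covariate, two-sided. edgeR 4.0.16 and DESeq2 1.42.0 on the recovered reads were alternatives. Values in every library are given for genes past an adjusted p of 0.05 and an absolute log2 change above 2, for reference chaperones and for the most changed gene of each role, and for others where a result turned on them. The genes and lists were chosen with earlier results of these data known. Lengths are MANE transcripts (GENCODE). The steps were tested on simulated data. Intervals and limits cover counting error only.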

Additional observations from a re-analysis of the deposited data

How the results depend on the processing

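Each of the 40 genes had 4 comparisons, 160 results in all, and none changed direction in an alternative where it, or the limma value reported, was called. Of the 73 results called by limma, 51 were called in every alternative that gave a value and 22 were lost in at least 1, while 57 of the 87 that were not called passed in at least 1. DESeq2 gave no adjusted p for 4 results, which are left out of these counts. Other scaling by median-of-ratios factors moved the median of all genes from DTP to DTEP by -0.11.

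Fitting only the 6 libraries compared gave 23 genes lower in DTP in place of 15 (37.6% of all genes), and 0 lower in LR than in DTEP in place of 2 (0% of all genes). For the latter, edgeR gave 4 (8.56% of all genes) and DESeq2 9 (15.1%). A log2 change above 1 left 3 higher and 9 lower in DTP, 6 and 4 from DTP to DTEP, 1 lower from DTEP to LR and 3 higher and 14 lower in LR than in Control, beside 9.24% and 15.8%, 22.4% and 19.5%, 2.5%, and 16.9% and 19.6% of all genes. Above 2 it left 1 and 1, 3 and 1, 1 lower, and 1 and 3 in the same comparisons, with the shares of all genes given above. Leaving out single libraries gave 5 to 7 higher and 10 to 20 lower in DTP, beside 19.8% to 30.2% and 23% to 33.3% of all genes. From DTP to DTEP it gave 9 to 22 higher and 6 to 9 lower, beside 32% to 38.2% and 29.4% to 33.4%. It gave 0 to 29 lower from DTEP to LR, and 5 to 7 higher and 17 to 28 lower in LR against Control. With all libraries, 4.31% of all genes were lower from DTEP to LR, and 30.2% were higher and 32.6% lower in LR against Control. The values of 22 and 29 came without DTEP replicate 3, and the value of 0 without DTEP replicate 2. The fit of 5 libraries without DTEP replicate 3, added after seeing the data, gave 22 higher from DTP to DTEP and 20 lower from DTEP to LR. The shares of all genes for this fit are given above. The cause of these differences was not tested.

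With the replicate number as a block, the counts were 6 higher and 14 lower in DTP, beside 24.5% and 28.2% of all genes. From DTP to DTEP they were 11 and 9, beside 35.4% and 32.3%. They were 0 and 2 from DTEP to LR, and 7 and 21 in LR against Control. Without the block, the shares of all genes in these comparisons were 3.04% and 4.31%, and 30.2% and 32.6%. The numbers did not pair the samples, since correlations of same-numbered libraries ran from -0.44 to 0.36 and 2 of 12 libraries were closest to their own number.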
